A study of Mus musculus with 19 samples.

Results

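Hepatokines are proteins that the liver secretes into the blood and that act on metabolism in other tissues or in the liver itself. Transcripts of 9 of them were examined in mouse liver with and without the RNA-binding protein RALY, namely Fgf21, Gdf15, Angptl4, Angptl6, Fetub, Ahsg, Inhbe, Inhbc and Enho. They were chosen by gene symbol, and all 9 were found among the 24054 genes of the expression table. RNA-seq was available for 3 L-RalyKO and 3 control livers. All 6 mice were Raly flox/flox animals on a C57BL/6 background and were fed chow. The study states that it used males where nothing else is said. It mentions fasting mice beside its liver qPCR, and whether the sequenced mice were fasted is not given. L-RalyKO mice had received AAV8.TBG.Cre and control mice AAV8.TBG.GFP, and livers were taken 4 weeks after the injection. The age of these mice is not given in the sources used here, and the labels list the control genotype as wild type. The TBG promoter drives Cre in hepatocytes, so other liver cells were expected to keep Raly. Between 28302983 and 38052705 reads per liver were recovered from the deposited values.

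Fibroblast growth factor 21 (Fgf21) is induced by fasting through the nuclear receptor PPARA and by amino acid shortage through ATF4, and signals through FGF receptors together with β-Klotho. Gdf15 is a stress-induced cytokine that acts on a receptor of the hindbrain and lowers food intake. Angptl4 inhibits lipoprotein lipase, and Angptl6 is a related angiopoietin-like factor. Ahsg and Fetub encode fetuin-A and fetuin-B, plasma proteins of the cystatin superfamily, of which fetuin-A can inhibit the insulin receptor. Inhbe and Inhbc encode the βE and βC subunits of activins, which are made mainly by hepatocytes. Enho encodes the peptide adropin, which is linked to glucose and lipid handling.

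With limma, 0 of the 9 transcripts had an adjusted p under 0.05, which 6.55% of all tested genes had, and 4 were higher at an unadjusted p under 0.05, as were 11.8% of genes (10.9% were lower). Another test, DESeq2, called 3 of them higher (4.65% of all genes), and edgeR 0 (3.39%). Means were higher in L-RalyKO livers for 7 of the 9. Enho differed most, with a mean 2.53 times that of the controls. Among the members with higher means, Gdf15 (1.67 times) and Ahsg (1.21 times) followed. The mean of Fgf21 was 0.82 times that of the controls. Enho and Ahsg, 2 of the 9, were higher in every L-RalyKO liver than in every control, as were 14.4% of all tested genes. Fgf21 and Angptl4 had lower means in L-RalyKO livers and overlapped between the groups. Values are reads per gene scaled to library size (CPM, with TMM factors) and are not divided by gene length. Fold changes, their standard errors and 95% intervals are differences of log2(value + 1) from limma, with Benjamini-Hochberg adjustment over 11580 genes. Adding 1 understates the change of low transcripts such as Fgf21, Enho and Gdf15.

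Promoter sequences are shown for 4 members, because the study dealt with the CCAAT-binding factor NFY and because ATF4 induces some hepatokine genes. The sequences are from RefSeq (GRCm38.p6), and 7 of the 9 members were matched in the promoter table used here, all but Angptl4 and Enho. Each runs from 250 bases before the annotated start to 50 after it, 5′ to 3′ on the strand of the gene, and position 0 is the first transcribed base. Capitals mark matches on either strand to CCAAT (the CCAAT box), TGATGNAA (the C/EBP-ATF response element) or CACGTG (the E-box), and no match overlapped another. The neighbouring fetuin genes are shown first, at chr16:22891765-22892064 (+ strand) for Ahsg and chr16:22918132-22918431 (+ strand) for the first of the start sites of Fetub. Fgf21 at chr7:45615441-45615740 (− strand) and Inhbe at chr10:127351799-127352098 (− strand) follow, as the members with a C/EBP-ATF response element.
Ahsg: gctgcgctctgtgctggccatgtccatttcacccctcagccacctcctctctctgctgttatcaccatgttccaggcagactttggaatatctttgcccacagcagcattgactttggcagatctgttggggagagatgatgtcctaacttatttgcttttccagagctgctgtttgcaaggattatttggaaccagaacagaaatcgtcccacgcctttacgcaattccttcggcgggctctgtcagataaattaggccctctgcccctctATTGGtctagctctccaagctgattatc
Fetub: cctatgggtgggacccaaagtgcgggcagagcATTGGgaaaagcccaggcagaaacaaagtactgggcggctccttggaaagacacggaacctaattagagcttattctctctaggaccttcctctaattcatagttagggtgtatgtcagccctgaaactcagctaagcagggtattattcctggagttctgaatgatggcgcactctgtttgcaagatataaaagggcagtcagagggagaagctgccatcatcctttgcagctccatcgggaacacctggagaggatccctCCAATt
Fgf21: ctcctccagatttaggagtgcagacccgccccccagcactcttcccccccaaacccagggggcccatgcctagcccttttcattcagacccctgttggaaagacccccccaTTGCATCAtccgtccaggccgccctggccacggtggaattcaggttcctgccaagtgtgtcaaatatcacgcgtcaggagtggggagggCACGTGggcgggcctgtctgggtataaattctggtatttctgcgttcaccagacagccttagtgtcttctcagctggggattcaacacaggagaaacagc
Inhbe: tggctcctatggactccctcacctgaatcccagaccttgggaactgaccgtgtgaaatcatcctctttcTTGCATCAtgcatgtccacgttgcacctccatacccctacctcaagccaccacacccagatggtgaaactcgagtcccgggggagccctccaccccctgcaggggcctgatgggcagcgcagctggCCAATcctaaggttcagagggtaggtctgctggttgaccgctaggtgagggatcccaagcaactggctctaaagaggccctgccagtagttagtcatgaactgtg

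In Ahsg the CCAAT box, read on the other strand as ATTGG, began at position 22, inside the transcribed part. Fetub had one at −218 and another at 44. The C/EBP-ATF response element of Fgf21 began at −139 and its E-box at −50. Inhbe had the same element at −181 and a CCAAT box at −55. A CCAAT box occurred in 4 of the 7 members with an entry (Gdf15, at its second start site, being the fourth), that is in 4 of their 9 promoter entries, and in 37.4% of 32544 promoters. The C/EBP-ATF response element occurred in 2 of 9 entries (3.91% of all promoters), and the E-box in 2 of 9 (Fgf21 and Gdf15, against 7.17%). These matches are letters in a window, and binding was not measured here.

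Raly itself, the targeted gene, was at 6.34, 6.61 and 7.39 in the L-RalyKO livers and at 50.1, 48.6 and 46.8 in the controls (log2 fold change −2.67, SE 0.07, adjusted p = 6.92e-07, limma). Over all tested genes 758 (6.55%) had an adjusted p under 0.05, 389 higher (3.36%) and 369 lower (3.19%) in L-RalyKO livers. With total count scaling the split was 325 higher and 470 lower. The hepatocyte markers Alb and Apoa1 were abundant, with control means of 68256 and 5896. Of 9 tested hepatocyte markers 8 had a log2 fold change above 0, with a median of 0.12, and 1 passed the test (Hnf4a). Apoa1 differed by 0.28 (adjusted p = 0.141, limma) and Cps1, a urea cycle enzyme, by 0.32 (adjusted p = 0.0845), and both were higher in every L-RalyKO liver. Bulk liver was sequenced, so that fewer cells of a type and less RNA per cell cannot be told apart. No tested marker of Kupffer cells and leukocytes (11 genes), endothelial cells (10), stellate cells and fibroblasts (9), cholangiocytes (4), erythroid cells (6) or pancreas (1) passed the test. Of their leading markers, Ptprc and Clec4f, Pecam1 and Cdh5, Lrat and Des, and Hbb-b1 and Hbb-b2 were tested. Krt7 and Krt19 stayed under 1.2 in every liver, and Prss1 and Prss2 were at 0 in all 6. Adipoq and Lep were at or under 0.21 in every liver, with their highest values in control mouse 1. Among adipocyte markers Cfd, an adipocyte serine protease, fell (log2 fold change −2.10, adjusted p = 0.0318, limma) and Adrb3, a β-adrenergic receptor, rose (0.66, adjusted p = 0.0120). With a pseudocount of 0.1 the Cfd change was −3.52, and on the recovered reads it was −3.72 (DESeq2) to −3.96 (voom). The Cfd call was not met by edgeR (adjusted p = 0.143) or voom (0.0629), with no filter on low values (0.0685) or no intensity trend (0.0589), or without L-RalyKO mouse 1 (0.09996) or 3 (0.0927).

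The abundance of the 9 hepatokines spanned more than 3 orders of magnitude. Per kilobase of merged exons, the control mean was 3052 ± 267 (SD, n = 3) for Ahsg, 231 ± 26.1 for Fetub and 61.7 ± 6.81 for Angptl4. Inhbc (26.9 ± 1.09) and Inhbe (26.5 ± 7.17) followed and did not separate from each other. Angptl6 was lower at 6.11 ± 0.70. The lowest 3, Gdf15 (1.34 ± 0.29), Fgf21 (1.33 ± 0.23) and Enho (1.04 ± 0.52), overlapped in the controls. In L-RalyKO livers Enho (2.63 ± 1.06) and Gdf15 (2.24 ± 0.74) overlapped each other, and every value of both lay above those of Fgf21 (1.10 ± 0.42, highest 1.501). Ahsg alone took 0.418% to 0.568% of all reads in a liver.

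**Figure D1:**
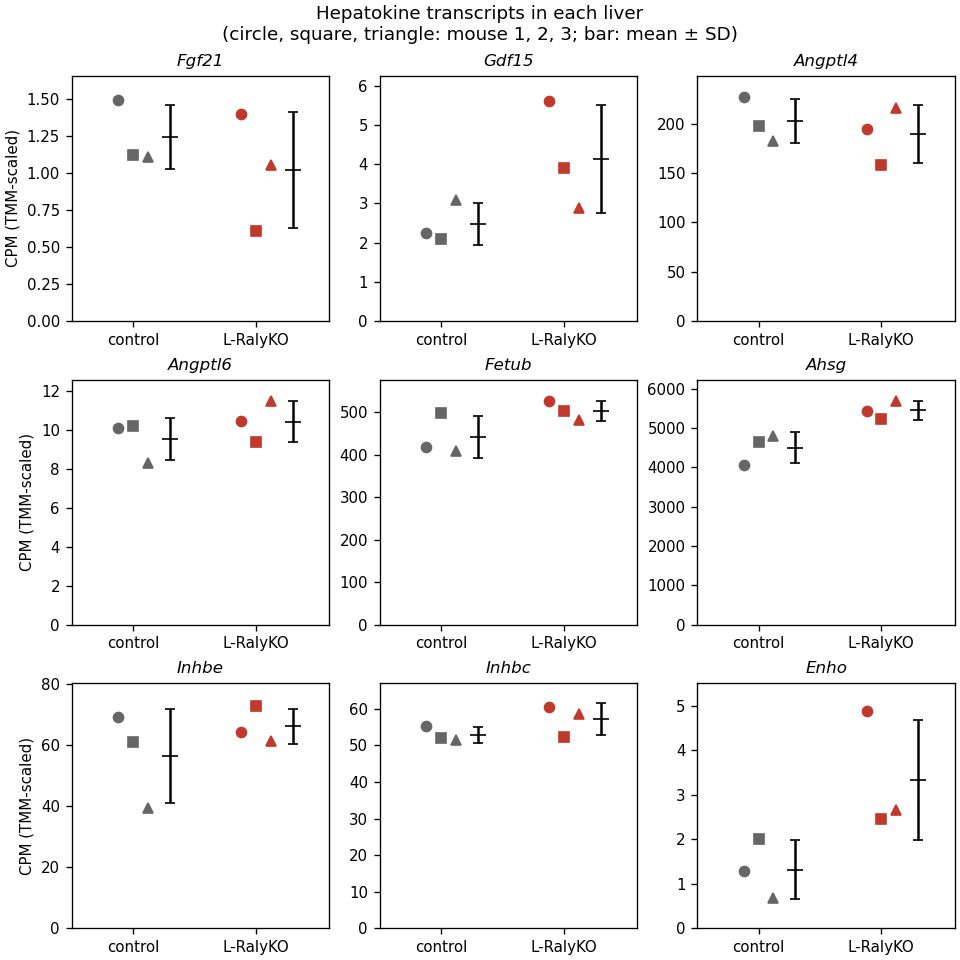
Level of each hepatokine transcript in each liver, in CPM on a linear axis from 0, for 3 control (grey) and 3 L-RalyKO (red) mice. Symbols stand for mouse 1, 2 and 3 of a group and bars for mean ± SD. The groups separate for Ahsg and Enho and overlap for the other 7.

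Enho, the adropin gene (ENSMUSG00000028445.6, chromosome 4, 41585177 to 41587357, − strand, NCBIM37), was measured at 4.89, 2.47 and 2.66 in L-RalyKO livers and at 1.28, 1.999 and 0.676 in controls. The lowest L-RalyKO liver was above the highest control, and mouse 1 of the L-RalyKO group stood above the other 2. These values rest on 168, 85 and 101 reads in L-RalyKO livers and 43, 57 and 25 in controls. The means were 3.34 ± 1.35 and 1.32 ± 0.66 (SD, n = 3 each), a coefficient of variation of 40.3% and 50.2%. The log2 fold change was 0.90 (SE 0.25, interval 0.33 to 1.47), adjusted p = 0.0709 (limma). An exact two-sided permutation test gave p = 0.1, the smallest that 3 against 3 mice allow. DESeq2 on the recovered reads did call Enho (1.35, adjusted p = 0.00302), while edgeR's quasi-likelihood test (1.37, adjusted p = 0.116) and voom (1.43, adjusted p = 0.0750) did not. Leaving out L-RalyKO or control mice in turn, the difference stayed between 0.66 and 1.11. The annotation types Enho as a processed transcript, and 15 of its exon bases lie opposite exons of Dnaic1 on the other strand. Whether strand was used in the counting is not given in the sources used here.

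Over the 6 livers the genes whose levels followed Enho most closely were Mocs1 (Pearson's r = 0.998), Lrrc56 (0.998) and Tm2d1 (0.996), on the log2 scale. The points share libraries and groups, and the 3 genes are the highest of all tested, so the values are a description. Their own differences between groups were small, with log2 fold changes of 0.04, 0.15 and 0.14. Cntfr, a subunit of the receptor for ciliary neurotrophic factor and the next tested gene on chromosome 4, differed by 0.40 on the log2 scale (adjusted p = 0.0769, limma).

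Ahsg (ENSMUSG00000022868.5, chromosome 16, 22892115 to 22899511, + strand), which encodes fetuin-A, reached 5419, 5229 and 5687 in L-RalyKO livers against 4052, 4646 and 4798 in controls. Every L-RalyKO liver was above every control. The means were 5445 ± 230 and 4499 ± 394 (SD, n = 3 each). With at least 132489 reads of Ahsg in a liver, counting error was small beside the spread between mice. The log2 fold change was 0.28 (SE 0.09, interval 0.08 to 0.48), with an adjusted p of 0.0988 (limma), and the exact permutation p was 0.1. DESeq2 called Ahsg (0.27, adjusted p = 0.00708), whereas edgeR (adjusted p = 0.0668) and voom (adjusted p = 0.0611) did not. With a mouse left out the limma difference ran from 0.20 (without control mouse 1) to 0.33 (without control mouse 3). The adjusted p was then 0.0909 to 0.227. With total count scaling the difference was 0.24 (adjusted p = 0.121), and with no filter on low values the adjusted p was 0.287.

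Fetub (ENSMUSG00000022871.6, chromosome 16, 22918455 to 22939839, + strand), the fetuin-B gene, starts 18944 bp downstream of Ahsg. It was at 527, 501 and 480 in L-RalyKO livers and at 418, 499 and 408 in controls. Mouse 2 of the controls lay inside the L-RalyKO range, and the other 2 controls were below it. The means were 503 ± 23.4 and 441 ± 49.8, and their difference on the log2 scale was 0.19 (SE 0.08, interval 0.01 to 0.38, adjusted p = 0.198, limma). Without control mouse 2 the difference was 0.28 with an adjusted p of 0.0461, and without control mouse 3 it was 0.14 (adjusted p = 0.378). Within a liver the ratio of Ahsg to Fetub values overlapped between the groups (10.9 ± 0.86 and 10.3 ± 1.32, exact permutation p = 0.5). The next genes of this cluster, Hrg and Kng2, encode other plasma proteins of the same superfamily. Their log2 fold changes were 0.05 (adjusted p = 0.625) and 0.19 (adjusted p = 0.0648), so that no gene of the cluster passed the test.

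Gdf15 (ENSMUSG00000038508.7, chromosome 8, 73153292 to 73156355, − strand) was at 5.61, 3.92 and 2.89 in L-RalyKO livers and 2.24, 2.10 and 3.08 in controls. L-RalyKO mice 1 and 2 were above all controls, and mouse 3 fell among them. The means were 4.14 ± 1.37 and 2.47 ± 0.53 from 60 to 193 reads per liver. The log2 fold change of 0.54 (SE 0.19, interval 0.11 to 0.98) did not pass adjustment (adjusted p = 0.134, limma). DESeq2 gave 0.73 with an adjusted p of 0.0480, and edgeR 0.73 with 0.132. Without L-RalyKO mouse 1 the difference was 0.34, and without L-RalyKO mouse 3 it was 0.73. Pgpep1, which encodes a pyroglutamyl peptidase and lies 16655 bp from Gdf15, was higher in L-RalyKO livers (log2 fold change 0.47, adjusted p = 0.00793). Of 43 tested genes within 100 kb of a hepatokine that are not hepatokines themselves, 2 passed the test, against 6.55% of all tested genes. The 2 were Pgpep1 and Mbd6, a methyl-CpG-binding domain gene on the Inhbe and Inhbc side (0.29, adjusted p = 0.0270, limma). Both were named after their values were seen.

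Fgf21 (ENSMUSG00000030827.4, chromosome 7, 52869277 to 52870860, − strand) rested on only 21 to 50 reads in a liver. It was at 1.40, 0.609 and 1.05 in L-RalyKO livers and 1.49, 1.12 and 1.11 in controls. The groups overlapped, and L-RalyKO mouse 2 was the lowest of all 6. The log2 fold change was −0.16 (SE 0.16, interval −0.53 to 0.20, adjusted p = 0.601, limma), and on the recovered reads it was between −0.28 (edgeR) and −0.35 (voom). Without L-RalyKO mouse 2 it was −0.01, and without L-RalyKO mouse 1 it was −0.30. A difference in Fgf21 was not detectable with these mice.

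Angptl4 (ENSMUSG00000002289.9, chromosome 17, 33910695 to 33918520, − strand), the inhibitor of lipoprotein lipase, was at 195, 158 and 216 in L-RalyKO livers and 227, 198 and 183 in controls. The means were 190 ± 29.5 and 203 ± 22.4, and the groups overlapped. The log2 fold change was −0.10 (SE 0.12, interval −0.37 to 0.17, adjusted p = 0.666, limma), and it was 0.03 without L-RalyKO mouse 2 and −0.20 without L-RalyKO mouse 3. Control mouse 1, the highest liver for Angptl4, also held the highest summed level of the 10 adipocyte markers. That sum was 69.2 there, 34.3 and 39.4 in the other controls and 35.7 to 40.2 in L-RalyKO livers. Control mouse 1 stood apart in Cidea, a lipid droplet protein (14.1, against 0.526 and 0.892 in the other controls and 0 to 0.087 in L-RalyKO livers), and in Cfd (12.6, against 2.74 and 3.46). Adipoq, Lep and Retn were at or under 0.21 in every liver and highest in control mouse 1, on 4, 7 and 5 reads. Plin1 had at most 2 reads in a liver. Without control mouse 1 the Angptl4 difference was −0.02. The part of adipocyte RNA in these values was not tested.

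Angptl6 (ENSMUSG00000038742.5, chromosome 9, 20678253 to 20684154, − strand) was at 10.5, 9.37 and 11.5 in L-RalyKO livers and 10.1, 10.2 and 8.30 in controls. The groups overlapped and differed by 0.12 on the log2 scale (SE 0.10, interval −0.11 to 0.35, adjusted p = 0.541, limma). The difference was 0.03 without control mouse 3 and 0.05 without L-RalyKO mouse 3, and 0.19 without L-RalyKO mouse 2. Of its exon bases 264 lie opposite exons of A230050P20Rik on the other strand.

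The activin subunit genes Inhbe (ENSMUSG00000047492.4, 126786458 to 126788828) and Inhbc (ENSMUSG00000025405.8, 126793384 to 126807600) lie 4556 bp apart on the − strand of chromosome 10. Inhbe was at 64.2, 72.7 and 61.5 in L-RalyKO livers and at 69.1, 61.0 and 39.5 in controls. Control mouse 3 was far below the other livers, and without it the log2 fold change of 0.26 (SE 0.18, interval −0.14 to 0.66, adjusted p = 0.433, limma) became 0.02. Without control mouse 1 it was 0.42 (adjusted p = 0.235). Inhbc was at 60.6, 52.4 and 58.7 against 55.3, 51.9 and 51.4, with a difference of 0.11 (SE 0.06, interval −0.04 to 0.26, adjusted p = 0.363), which was 0.07 without L-RalyKO mouse 1 and 0.17 without L-RalyKO mouse 2. The ratio of Inhbe to Inhbc overlapped between the groups (1.17 ± 0.19 and 1.06 ± 0.26, exact permutation p = 0.7).

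**Figure D2:**
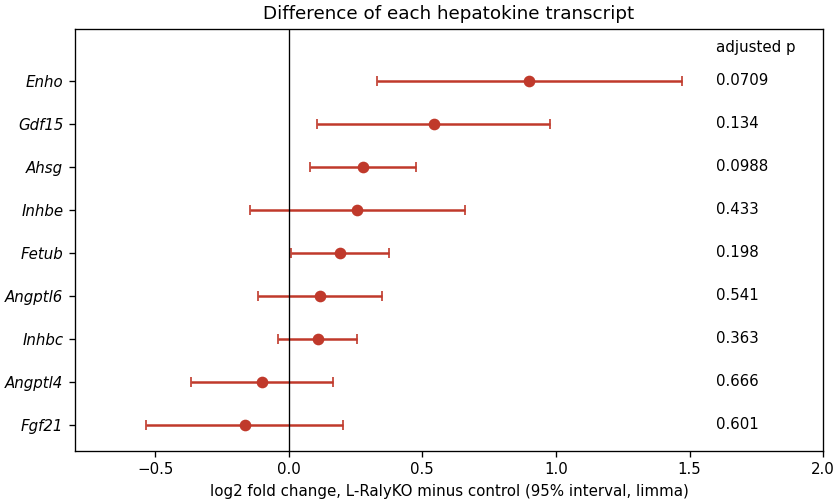
Difference between L-RalyKO and control livers for each hepatokine, on the log2 scale (3 mice per group). Points are limma estimates and bars 95% intervals, with the adjusted p at the right. The intervals of Enho, Gdf15, Ahsg and Fetub lie above 0 and those of the other 5 include 0, and no adjusted p is under 0.05.

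Counted over the members, 0 of 9 had an adjusted p under 0.05 in limma and in edgeR. In either direction limma called 6.55% of all tested genes, and edgeR called 783 of 11580. The shares called higher were 3.36% with limma and 3.39% with edgeR. DESeq2 called 3 of 9 (Ahsg, Enho and Gdf15), all higher, against 4.65% of genes. At an unadjusted p under 0.05 the count was 4 higher (Enho, Ahsg, Gdf15 and Fetub) and 0 lower, against 11.8% and 10.9% of all tested genes. The groups separated upward for 2 members and downward for 0, against 14.4% and 13.7% of genes. A log2 fold change above 0 was found for 7 members and for 51.2% of genes, and the median was 0.19 over the members and 0.00 over all genes. It was also above 0 for 22 of 27 tested other secreted liver factors and 8 of 9 tested hepatocyte markers. The groups separated upward for 10 and downward for 1 of those factors, and upward for 4 and downward for 0 of those markers. The intervals of Angptl4, Angptl6, Fetub, Ahsg, Inhbe and Inhbc all lay between −0.37 and 0.66, inside a 2-fold change in either direction.

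**Figure D3:**
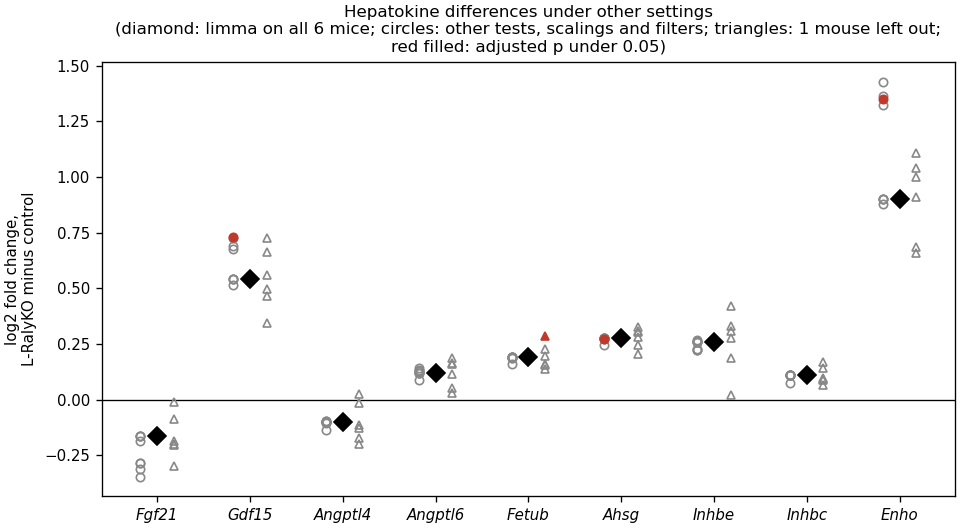
Log2 fold change of each hepatokine under the 14 other settings, beside the limma value from all 6 mice (diamond). Circles are other tests, scalings and filters, triangles leave out 1 mouse each, and filled red marks an adjusted p under 0.05. The calls come from DESeq2 for Gdf15, Ahsg and Enho and from leaving out control mouse 2 for Fetub, and Angptl4 is the only member on both sides of 0.

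The receptors, binding proteins and mediators through which these factors act held 1 called gene. Of 28 listed genes 21 were tested, 1 rose, 0 fell and 20 did not pass the test, with a median log2 fold change of 0.01. This and the counts of the lists that follow stand beside 3.36% of all tested genes called higher and 3.19% called lower, with a median of 0.00. The gene that rose was Lpl, which encodes lipoprotein lipase, the enzyme that Angptl4 inhibits. Lpl was at 22.1, 31.1 and 22.7 in L-RalyKO livers and 7.66, 13.5 and 15.6 in controls, with no overlap. Its log2 fold change was 1.02 (SE 0.23, interval 0.50 to 1.54, adjusted p = 0.0357, limma). The call was not met by edgeR (adjusted p = 0.131) or without L-RalyKO mouse 1 (0.0740), 2 (0.107) or 3 (0.0700) or control mouse 2 (0.0572), nor with no filter on low values (0.0769) or no intensity trend (0.0652). Without control mouse 3, 2 genes of the list rose. Adipocytes also express Lpl. In L-RalyKO livers the summed adipocyte markers given above are mostly Lipe (23.6 to 27.9), while Cfd was lower and Adrb3 higher in L-RalyKO livers, and their part in the Lpl values was not tested. Klb, the β-Klotho coreceptor of FGF21, was at 28.6, 25.4 and 23.3 in L-RalyKO livers against 26.3, 32.8 and 38.4 in controls. The groups overlapped, and the difference of −0.31 did not pass (adjusted p = 0.197, limma). Insr, the insulin receptor gene, differed by −0.05 (adjusted p = 0.657). Gfral, the receptor of GDF15, had no read in any liver.

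Among other members of the same protein families, Inhbb fell. Of 22 listed genes 15 were tested, 0 rose, 1 fell and 14 did not pass, with a median of 0.05. With total count scaling 3 fell, and without control mouse 3 the count was 1 higher and 1 lower. Inhbb, the βB subunit of activin B, was at 2.01, 1.39 and 1.87 in L-RalyKO livers and at 4.89, 3.30 and 6.95 in controls, so that the groups did not overlap. The log2 fold change was −1.09 (SE 0.21, interval −1.56 to −0.63, adjusted p = 0.0185, limma). Adding 1 understates it, and it was −1.42 with a pseudocount of 0.1 and −1.51 (voom) to −1.53 (edgeR) on the recovered reads. Without L-RalyKO mouse 2 the limma value was −0.996 and without control mouse 1 it was −1.09, with an adjusted p of 0.0633 each time. Inhba, the βA subunit, was also lower in every L-RalyKO liver (2.59, 2.20 and 2.63 against 3.49, 3.26 and 3.73) but did not pass the test (−0.37, adjusted p = 0.0594). The ratio of Inhbb to Inhbc was 0.031 ± 0.003 in L-RalyKO livers and 0.096 ± 0.036 in controls, without overlap (exact permutation p = 0.1). This comparison was chosen after the values were seen. Inhbb alone had separated and Inhbc differed by 0.11, so the ratio mostly repeats the Inhbb difference.

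**Figure D4:**
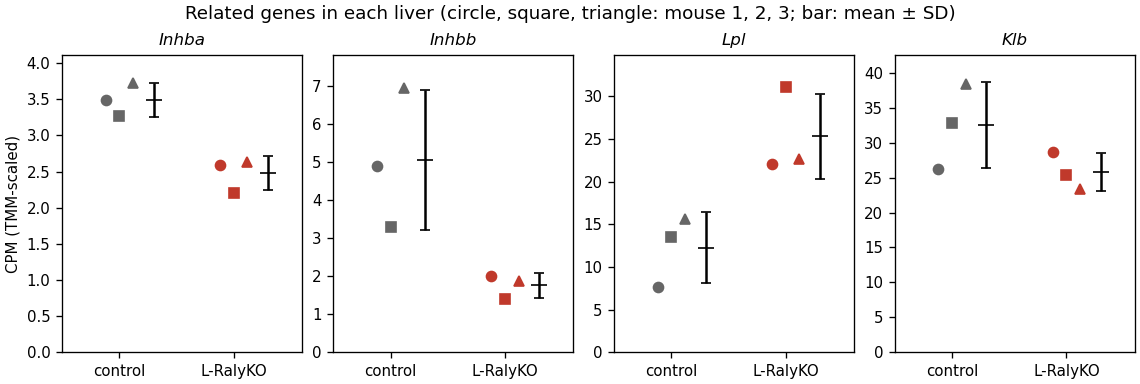
Level of Inhba, Inhbb, Lpl and Klb in each liver, in CPM from 0 (3 control mice in grey, 3 L-RalyKO mice in red, bar: mean ± SD). L-RalyKO livers lie below all controls for Inhba and Inhbb and above all controls for Lpl, and the groups overlap for Klb.

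Other secreted liver factors also had a median above 0. Of 30 listed genes 27 were tested, 2 rose, 0 fell and 25 did not pass, with a median of 0.12. Orm1, an acute phase glycoprotein, was at 361, 376 and 373 against 303, 311 and 320 (log2 fold change 0.25, adjusted p = 0.0173, limma). Apom, an apolipoprotein that carries sphingosine-1-phosphate, was at 92.6, 88.6 and 94.96 against 57.9, 75.7 and 59.6 (0.52, adjusted p = 0.0166). The groups separated for both genes. The Orm1 call was not met when any mouse other than control mouse 3 was left out (adjusted p up to 0.0607), nor the Apom call without L-RalyKO mouse 1 or 3 or control mouse 1 (up to 0.0604). Orm1 has near-identical copies, among which reads may be shared.

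Transcription factors that act on hepatokine genes moved in both directions. Of 26 tested genes 1 rose, 3 fell and 22 did not pass, with a median of −0.00. Hnf4a, a master regulator of hepatocyte genes, was at 900, 809 and 829 in L-RalyKO livers and 520, 542 and 680 in controls (log2 fold change 0.55, adjusted p = 0.0155, limma). Pparg, the adipogenic nuclear receptor, was at 7.91, 8.85 and 7.03 against 16.6, 11.6 and 12.2 (−0.68, adjusted p = 0.0214). Srebf1, which drives fatty acid synthesis, was at 191, 245 and 166 against 323, 299 and 312 (−0.65, adjusted p = 0.0173). Stat5b, which mediates growth hormone signalling, was at 48.4, 53.1 and 46.4 against 57.5, 63.3 and 69.3 (−0.35, adjusted p = 0.0346). The groups separated for all 4. The calls of Hnf4a, Pparg, Srebf1 and Stat5b were each lost without L-RalyKO mouse 1 (adjusted p of 0.0614, 0.0707, 0.0646 and 0.110). Hnf4a was also lost without control mouse 1 (0.0510) or 2 (0.0507), Pparg without L-RalyKO mouse 3 (0.0656) or with no filter on low values (0.0538), Srebf1 without control mouse 1 (0.0635), and Stat5b without L-RalyKO mouse 3 (0.0984) or control mouse 2 (0.0822) or 3 (0.0630), with no filter (0.0630) or with no intensity trend (0.0678). Ppara, which encodes the fasting receptor upstream of Fgf21, differed by 0.05 (adjusted p = 0.662), and Atf4 by 0.20 (adjusted p = 0.105).

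The targets of both inducers of Fgf21 were read beside it. Of 15 PPARA targets 0 rose, 2 fell and 13 did not pass, with a median of −0.16. Vnn1, a pantetheinase, was at 37.2, 51.1 and 54.8 in L-RalyKO livers and 140, 101 and 93.7 in controls (log2 fold change −1.20, adjusted p = 0.00647, limma). Cyp4a14, a fatty acid ω-hydroxylase, was at 467, 590 and 645 against 802, 985 and 968 (−0.70, adjusted p = 0.0138). Both were called in all 14 other settings. The number of PPARA targets that fell was 5 with DESeq2, which called 546 of 11577 genes lower. Without control mouse 3 it was 4, beside 358 of 11580 genes lower. Cyp4a14 has close paralogs, among which reads may be shared. Of 16 listed ATF4 targets 10 were tested, 1 rose, 1 fell and 8 did not pass, with a median of 0.09. With a replicate block 1 rose and 2 fell, and without L-RalyKO mouse 3 the count was 0 higher and 2 lower. Asns, asparagine synthetase, was at 2.04, 1.54 and 1.45 against 0.328, 0.947 and 0.243 (0.85, adjusted p = 0.0324). The Asns change was 1.71 with a pseudocount of 0.1, and 1.76 (DESeq2) to 1.97 (voom) on the recovered reads. Vldlr, a lipoprotein receptor, was at 1.75, 2.35 and 1.58 against 3.79, 3.26 and 3.78 (−0.68, adjusted p = 0.0155). The Vldlr change was −0.91 with a pseudocount of 0.1, and −0.94 (edgeR) to −0.96 (voom) on the recovered reads. The Asns call was not met without L-RalyKO mouse 2 (0.0766) or 3 (0.0623) or control mouse 1 (0.105) or 3 (0.0689) or with no filter on low values (0.0513), and Asns was under the filter and not tested without L-RalyKO mouse 1. Nor was the Vldlr call met without L-RalyKO mouse 1 (0.0606) or control mouse 1 (0.0601).

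**Figure D5:**
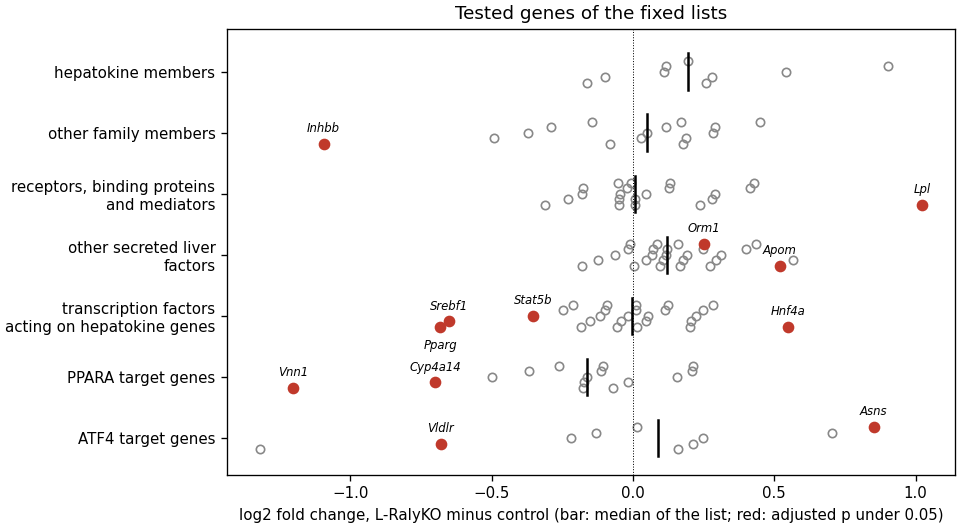
Log2 fold change (L-RalyKO minus control) of every tested gene of the hepatokines and of the 6 related lists. Bars mark each list's median, and red points are genes with an adjusted p under 0.05, with their symbols. The hepatokines hold no red point, and the related lists hold 12 points for genes that passed.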

How the data were processed

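RNA-seq of 3 L-RalyKO and 3 control livers was analysed, and the ATAC-seq and ChIP-seq of the study were not analysed here. Groups come from the sample labels, and columns were matched to mice by virus and replicate number. The methods describe stranded paired-end libraries, TopHat alignment to mm9 and FPKM values from Cufflinks 2.0.2 and Cuffdiff. The values the authors deposited are another signal, namely reads per gene scaled to library size (CPM) with edgeR's TMM factors. Every value (100%, within a tolerance of 0.01) was a whole multiple of what 1 read is worth in its library, so whole reads were recovered for the count tests.

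The hepatokines and the gene lists were chosen with earlier results of these data known. Groups were compared with limma 3.58.1 (R 4.3.3, intensity trend) on log2(value + 1) over 11580 genes with a mean of at least 1, with Benjamini-Hochberg adjustment and an adjusted p threshold of 0.05. Exact two-sided permutation tests over 3 against 3 mice cannot go below 0.1. Depth was 28302983 to 38052705 reads, and 3 reads correspond to a value of 0.0789 to 0.105. The number of mice and, for low genes, the reads limit the precision.

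Alternatives were edgeR 4.0.16 (quasi-likelihood), DESeq2 1.42.0 and voom on the recovered reads, total count scaling, a pseudocount of 0.1, no filter on low values, no intensity trend, a replicate block and leaving out each mouse. The tests were first run on simulated data. Positions and lengths are from GENCODE vM1 (NCBIM37) and promoters from RefSeq (GRCm38.p6). Genes were named by a rule: all members and Raly, the called genes of each related list, the first 2 markers of each marker list and any called marker, and the 3 genes most like the member with the lowest p. Genes outside it (Klb, Inhba, Insr, Gfral, Ppara, Atf4, Retn, Plin1, Cidea, Lipe, Cps1 and the genomic neighbours) were picked after their values were seen.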

Additional observations from a re-analysis of the deposited data

How the results depend on the processing

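Of the 9 hepatokines, 7 kept a log2 fold change above 0 and Fgf21 one below 0 in all 14 other settings. The exception was Angptl4, which ran from −0.20 to 0.03 when a mouse was left out (0.025 without L-RalyKO mouse 2). DESeq2 called 3 members, Gdf15 (0.73), Ahsg (0.27) and Enho (1.35). Leaving out a mouse called 0 to 1 of them, Fetub without control mouse 2 (Fetub ranged from 0.14 to 0.28), and no other setting called any. Over all genes 758 were called, and 484 with no filter on low values, where more genes are tested. DESeq2 called 1084 of 11577 genes (538 higher, 546 lower), and leaving out a mouse gave 335 to 812 calls. Of the related lists' genes 12 were called (5 higher, 7 lower), 17 with DESeq2 (5 higher, 12 lower) and 5 to 16 with a mouse left out. Over all tested genes limma called 3.36% higher and 3.19% lower. Fewer mice are tested with a mouse left out, yet without control mouse 3 the counts rose to 812 genes and 16 list genes. The causes of these shifts were not tested. Per kilobase of its longest transcript the control mean of Fetub was 281 in place of 231. Mice with the same number in both groups are different animals, and their deviations from the group means correlated at 0.0664, −0.0238 and 0.0196. For mice of unlike number these correlations ran from −0.0878 to 0.0599. Whether mice of the same number shared a batch or handling was not tested. With a replicate block 704 genes and 0 members were called. The number of mice, and for Fgf21 and Enho also the reads, limit what can be seen.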

Other observations

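The ratio of Ahsg to Alb, both of them hepatocyte transcripts for plasma proteins, was examined after the values were seen. Within a liver it was 0.077, 0.074 and 0.080 in L-RalyKO mice and 0.063, 0.065 and 0.070 in controls. The groups did not overlap (means 0.077 ± 0.003 and 0.066 ± 0.003, SD, n = 3 each), and the exact permutation p of 0.1 is the smallest the design allows. The ratio of Fetub to Alb overlapped between the groups (exact permutation p = 0.2), as did that of Inhbc to Alb (exact permutation p = 0.8). The separation of Ahsg depended on the reference chosen. Against Apoa1, another hepatocyte transcript for a plasma protein, the ratio was 0.766 ± 0.035 in L-RalyKO livers and 0.765 ± 0.021 in controls (exact permutation p = 0.9), and against Cps1 it was 0.983 ± 0.094 and 1.01 ± 0.09 (exact permutation p = 0.7), with overlap both times.

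The ratio of Lpl to Angptl4, the enzyme and its inhibitor, was 0.113, 0.197 and 0.105 in L-RalyKO livers and 0.034, 0.068 and 0.085 in controls, again without overlap (difference of log2 ratios 1.12, exact permutation p = 0.1). This ratio was also chosen after the values were seen. Lpl alone differed by 1.02 and Angptl4 by −0.10 on the log2 scale (limma), so the ratio mostly repeats the Lpl difference.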
